A study of Mus musculus with 10 samples.

Results

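Genes known from the choroid plexus were followed in RNA from brain endothelial cells (BECs) of APP/PS1 and control mice. The list held 8 genes, Ttr, Tmem72, Kl, Enpp2, Folr1, Igf2, Clic6 and Car12. The genes were selected on the difference between APP/PS1 and control libraries in these same log2 values, so that difference is described here without a test. Of the 8 genes, 7 had a value among the 14106 genes of the deposited table, and Folr1 was not analysed here. The libraries came from 1 year old female mice, 5 from APP/PS1 mice (genotype label APP/PS1) and 5 from age-matched controls (genotype label WT) of the same C3H/BL6 genetic background. APP/PS1 mice carry transgenes for mutant human amyloid precursor protein and presenilin and deposit amyloid in the brain. The transgene promoter and the number of mice behind each library are not given in the sources used here, so each SD is a spread between libraries, which may be technical. The cells were taken from the microdissected cortex after removal of the meninges and of myelin debris, and were enriched on CD31 microbeads. The values are log2 CPM, gene counts scaled to the size of the library on a log2 scale, which the authors corrected for batch. Replicate numbers pair 1 control library with 1 APP/PS1 library, and a log2 fold change is the mean of the 5 differences between the APP/PS1 and the control library of a pair.

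The choroid plexus is a secretory epithelium in the brain ventricles that forms cerebrospinal fluid and lies outside the cortex. Its cells pump ions and bicarbonate to move water, and they release carrier proteins and growth factors into the fluid. Ttr encodes transthyretin, a carrier of thyroid hormone and, with a partner protein, of vitamin A, and Igf2 encodes an insulin-like growth factor. Kl encodes klotho, a co-receptor of fibroblast growth factor receptors, and Enpp2 encodes autotaxin, a secreted enzyme that makes the signalling lipid lysophosphatidic acid (LPA). Clic6 encodes a chloride intracellular channel protein, Car12 a membrane-bound carbonic anhydrase, and Tmem72 a transmembrane protein. Several of these genes are not private to that epithelium. Igf2 is also made by fibroblasts of the meninges, Enpp2 by oligodendrocytes, and Kl by neurons.

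The adjusted counts behind the log2 values totalled between 22371766 and 126686149 per library, with the lowest total of each group in replicate 1. The endothelial genes Cldn5, Pecam1 and Cdh5 were at 10.41 ± 0.07, 10.76 ± 0.08 and 10.15 ± 0.11 log2 CPM in the control group and at 10.42 ± 0.07, 10.84 ± 0.08 and 10.26 ± 0.11 in the APP/PS1 group (SD over 5 libraries). Batch correction had set the mean of a pair almost equal across pairs, with an SD of 0.00353 log2 units in the median gene against 0.0863 for the deviation of a library from its pair mean. A control library therefore reads high where its APP/PS1 partner reads low. For the same reason, a gene lower in all 5 pairs almost always has groups that do not overlap. A lack of overlap given below adds little to the paired differences. Which library of a pair gave rise to a large difference cannot be told apart, and the SDs of both groups are not independent of each other.

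The choroid plexus label held only in part. Of 46 other genes of the choroid plexus epithelium, 22 had a value. The defining genes Kcnj13, Otx2, Cldn2, Sostdc1, Slc4a5 and Kcne2 were not analysed here. The defining genes with a value were Aqp1, a water channel also found in endothelium outside the brain, at 3.63 ± 0.61 log2 CPM in control libraries, Trpm3, a cation channel, at 1.24 ± 0.44, and Prlr, the prolactin receptor, at 0.26 ± 0.38 (SD, n = 5). Of 17 genes of the ciliated ependyma, 2 had a value, and Foxj1, Tmem212 and Ccdc153 were not analysed here. The genes described below are therefore genes known from the choroid plexus, and the cells that supplied their RNA were not identified.

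On the log2 CPM scale, which is not set per length, the mean levels of the 7 genes lay between percentile 3.71 of all genes (Tmem72) and percentile 89.5 (Enpp2). Set per kilobase of annotated exon, Ttr was the most abundant in the control libraries at 41.1 ± 11.5 CPM per kb, followed by Enpp2 at 25 ± 2.34 and Igf2 at 5.52 ± 0.863 (SD, n = 5). The ranges of Ttr and Enpp2 overlapped. Kl at 0.775 ± 0.0741, Clic6 at 0.398 ± 0.0725, Car12 at 0.127 ± 0.0226 and Tmem72 at 0.0545 ± 0.00506 CPM per kb each lay below the lowest library of the gene before it. In the APP/PS1 libraries Enpp2 came first at 24.0 ± 2.11 and Ttr second at 20.8 ± 7.36 CPM per kb, again with overlapping ranges, and those of Clic6 (0.144 ± 0.0486) and Car12 (0.0638 ± 0.0176) overlapped as well. Exon lengths were taken over all annotated transcripts, 17177 bases for Tmem72 and 1186 for Ttr. A gene whose longest exons are rarely used is then placed too low in this order.

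**Figure D1:**
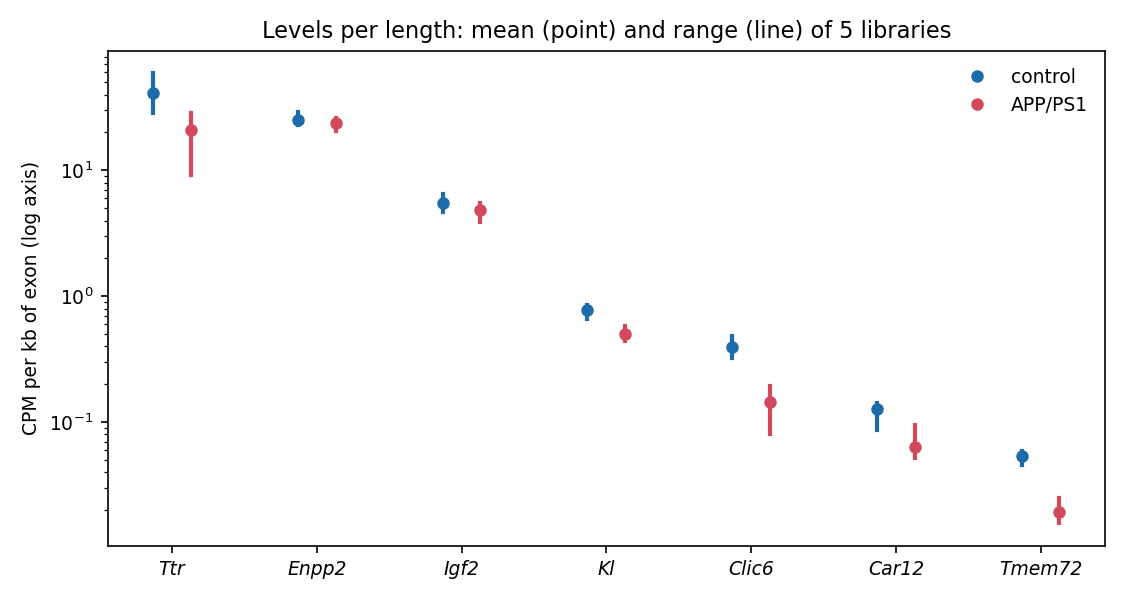
Mean (point) and range (line) of 5 libraries per group in CPM per kb of exon, on a log axis, for the 7 genes in order of their control level. Ttr and Enpp2 are at 9.18 CPM per kb or higher in every library and Tmem72 at 0.059 or lower, and the control and APP/PS1 ranges are apart for Kl, Clic6 and Tmem72.

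Ttr, at chromosome 18 from 20665280 to 20674321 of GRCm38, was 6.13, 5.49, 5.40, 5.71 and 5.09 log2 CPM in control replicates 1 to 5. In the APP/PS1 replicates it was 3.45, 4.76, 4.85, 4.51 and 5.09. The groups met at replicate 5, where the libraries of the pair read alike, and were farthest apart at replicate 1. The log2 fold change was −1.03 (standard error 0.381), which is 2.05-fold more Ttr RNA in control libraries, and the level was lower in 4 of 5 pairs. Replicate 1 supplied much of this difference, and the log2 fold change without it was −0.62. Every Ttr value rested on at least 241 adjusted counts. In bulk RNA of this kind, fewer cells of a type and less RNA per cell cannot be told apart.

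Kl, at chromosome 5 from 150952607 to 150993817, was 3.01, 2.82, 2.87, 2.95 and 2.64 log2 CPM in control replicates 1 to 5 and 2.05, 2.27, 2.23, 2.13 and 2.45 in the APP/PS1 replicates. The lowest control library was above the highest APP/PS1 library. The log2 fold change was −0.63 (standard error 0.115), with differences between −0.96 in pair 1 and −0.19 in pair 5. Kl held 91 to 870 adjusted counts per library, the most of the 3 genes that were lower in all 5 pairs.

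Tmem72, at chromosome 6 from 116679063 to 116716913, was −0.03, 0.02, −0.02, 0.07 and −0.28 log2 CPM in control replicates 1 to 5 and −1.51, −1.51, −1.45, −1.71 and −1.11 in the APP/PS1 replicates. Its difference was the most even of the larger ones, between −1.77 in pair 4 and −0.82 in pair 5, with no overlap of the groups. The log2 fold change of −1.41 (standard error 0.136) corresponds to 2.66-fold more RNA in control libraries. Counts were few, with 22 to 121 adjusted counts in control libraries and 7 to 46 in APP/PS1 libraries.

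Clic6, at chromosome 16 from 92485736 to 92541243, was 0.95, 0.45, 0.61, 0.88 and 0.37 log2 CPM in control replicates 1 to 5. It was −1.51, −0.42, −0.61, −1.15 and −0.34 in the APP/PS1 replicates, where the lowest library held 7 adjusted counts. Here too the groups did not overlap. The log2 fold change was −1.46 (standard error 0.284), the largest of the 7 genes, and the difference ran from −2.46 in pair 1 to −0.71 in pair 5.

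Car12, at chromosome 9 from 66713686 to 66766845, was 0.15, −0.52, 0.06, 0.14 and 0.07 log2 CPM in control replicates 1 to 5 and −1.18, −0.41, −1.02, −1.21 and −1.08 in the APP/PS1 replicates. Pair 2 stood apart from the rest. Its APP/PS1 library was 0.11 above its control library, whereas the differences of the other 4 pairs lay between −1.35 and −1.08. The log2 fold change over the 5 pairs was −0.96 (standard error 0.23), and −1.23 without replicate 2.

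Enpp2 and Igf2 differed little between the groups. Enpp2, at chromosome 15 from 54838901 to 54952892, was 7.04, 7.38, 7.14, 7.11 and 7.19 log2 CPM in control replicates 1 to 5 and 7.23, 6.89, 7.15, 7.18 and 7.10 in the APP/PS1 replicates. It was higher in 3 pairs and lower in 2, with a log2 fold change of −0.06 (standard error 0.105) that became 0.05 without replicate 2. Igf2, at chromosome 7 from 142650766 to 142666816, was 4.80, 5.18, 5.23, 4.75 and 4.88 log2 CPM in control replicates and 4.94, 4.56, 4.49, 4.98 and 4.87 in APP/PS1 replicates. Its differences were −0.62 and −0.74 in pairs 2 and 3 and lay between −0.01 and 0.23 in the other pairs, with a log2 fold change of −0.20 (standard error 0.171). Both genes were well counted, with at least 3057 adjusted counts for Enpp2 and 645 for Igf2 in each library.

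**Figure D2:**
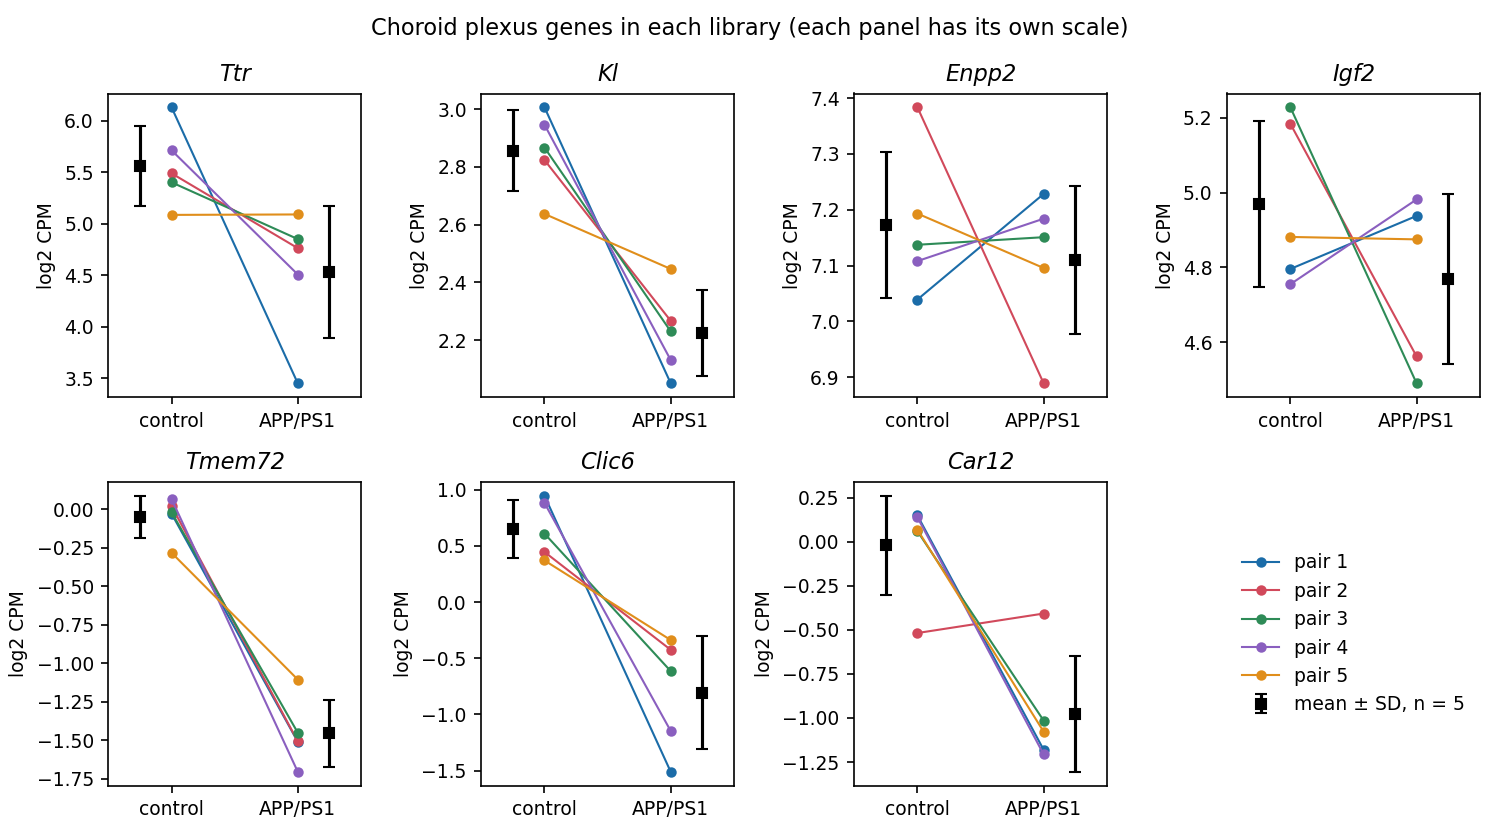
Log2 CPM of the 7 genes in each library, one panel per gene with its own scale, with a line joining the control and APP/PS1 library of a pair and black squares for the mean ± SD of 5 libraries. Lines for Kl, Tmem72 and Clic6 all slope down, 1 line for Car12 (pair 2) and 1 for Ttr (pair 5) do not, and lines for Enpp2 and Igf2 cross.

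All 7 genes had a mean difference below 0, as did 51.8% of the 14106 genes. The median log2 fold change was −0.96 for the 7 genes and −0.0038 for all genes. Kl, Tmem72 and Clic6 were lower in all 5 pairs, as were 5% of all genes. They had every APP/PS1 library below every control library, which was so for 4.96% of all genes. Among all genes, 2.99% were higher in all 5 pairs and 2.91% had every APP/PS1 library above every control library. Because pair means were set almost equal, the share by pairs and the share by overlap describe nearly the same property. Ttr, Tmem72 and Clic6 had a log2 fold change of −1 or lower, compared with 1.42% of all genes. The limma fit across all genes, with the pairs as a term in the model, called 0 genes at an adjusted p under 0.05, or 0% of the table, with 1133 genes (8.03%) at an unadjusted p under 0.05, 5.91% of the table being lower in APP/PS1 libraries. By limma-voom the count at the adjusted threshold was also 0, with 1025 genes at an unadjusted p under 0.05. Without the pair term limma called 648 genes, 4.59% of the table, 4 of the 7 genes among them. Since the genes were chosen in this contrast, nothing further is read from these counts.

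The size of the difference varied from pair to pair, as did that of the genes of mural cells, the pericytes and smooth muscle cells of the vessel wall. The 11 mural genes, among them the pericyte channel gene Kcnj8 and the smooth muscle gene Tagln, had median differences of −1.62, −0.19, −0.63, −1.43 and 0.01 in pairs 1 to 5. Kl, with differences of −0.96, −0.56, −0.64, −0.81 and −0.19, and Clic6, with −2.46, −0.87, −1.23, −2.03 and −0.71, put the pairs in the same order of size, pairs 1, 4, 3, 2 and 5. Ttr, with −2.68, −0.73, −0.55, −1.21 and 0.0043, changed that order only between pairs 2 and 3. Tmem72 did not follow it, with −1.48, −1.53, −1.43, −1.77 and −0.82. Car12, Enpp2 and Igf2 did not follow it either. In pairs 1 and 4, where the mural differences were largest, Enpp2 was at 0.19 and 0.08 and Igf2 at 0.14 and 0.23. The likeness of Kl, Clic6 and Ttr to the mural genes was noticed after the values were seen. How many of all genes put the pairs in this order was not counted, so the order is not shown to be particular to these genes. By the distances given below, many genes outside the list were nearer to Ttr than Clic6, which was at position 77.
All 11 of the 11 mural genes had a mean difference below 0, where 51.8% of all genes did. Of the 11, 4 were lower in all 5 pairs, compared with 5% of all genes. The log2 fold changes of the 11 mural genes lay between −0.94 for Kcnj8 and −0.65 for Tagln, with a median of −0.77. Their summed level ranged from 617 to 1040 CPM in control libraries and from 319 to 620 CPM in APP/PS1 libraries, and none of them was at 0 in any library. The 15 endothelial genes, in contrast, had a median of 0.03, between −0.05 and 0.12 in the single pairs. The part of mural cells in the differences of Ttr, Kl and Clic6 was not tested.

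**Figure D3:**
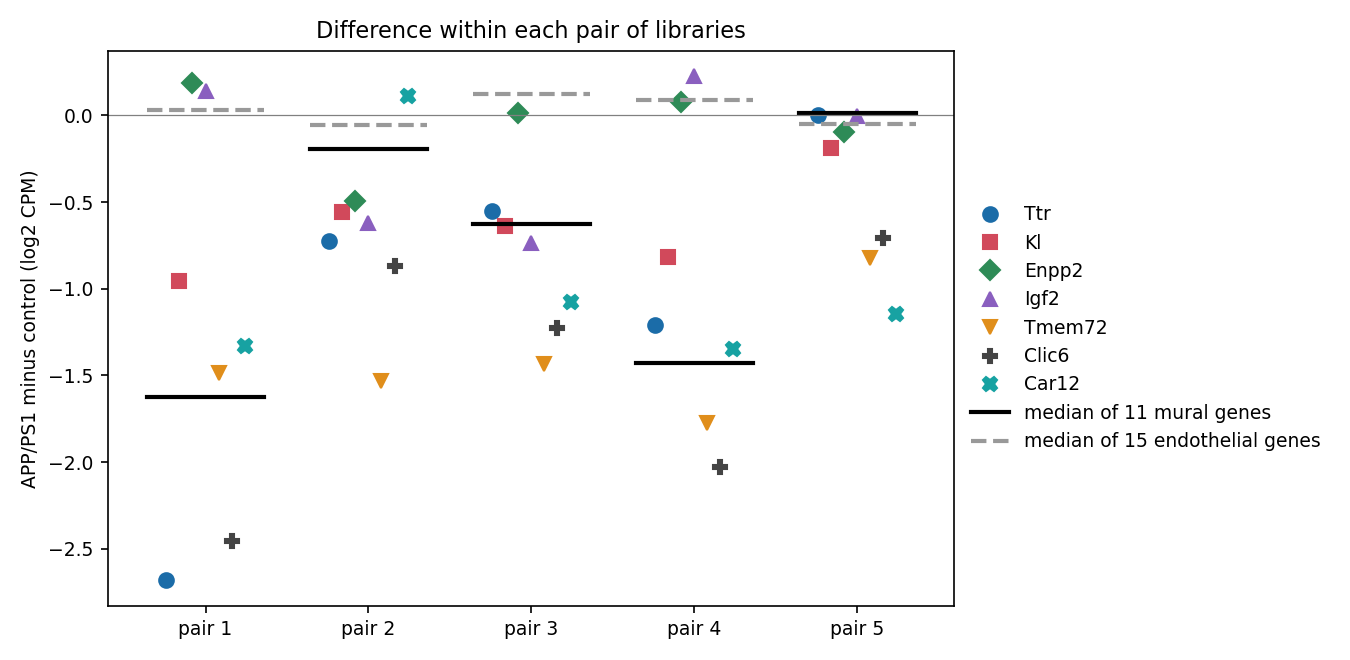
APP/PS1 minus control difference in log2 CPM within each of the 5 pairs for the 7 genes (symbols), with the median of 11 mural genes (solid bars) and of 15 endothelial genes (dashed bars). In pairs 1 and 4 the mural median is at −1.62 and −1.43. There Ttr, Kl, Clic6, Tmem72 and Car12 are below 0, and Enpp2 and Igf2 are above 0. In pair 5 the mural median and Ttr are both near 0.

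Marker genes of other cells were examined in the same way. Of 11 oligodendrocyte genes, 10 were lower in APP/PS1 libraries (median −1.83), and the median was 0.41 in pair 2, the pair in which Car12 was not lower. The median was −0.58 over the oligodendrocyte genes with at least 10 adjusted counts in every library. Their summed level over all 11 was 805 to 1189 CPM in the control group and 681 to 929 CPM in the APP/PS1 group. Of 9 astrocyte genes 8 were lower (median −1.05, summed level 171 to 210 and 171 to 212 CPM), with 0.66 in pair 2, and the median was −0.57 without replicate 1. Of 6 neuronal genes 5 were lower (median −0.50, summed level 102 to 126 and 103 to 128 CPM). The 8 genes of meningeal fibroblasts, a known source of Igf2, had a median of −0.52, with 6 lower, and their summed level, mostly that of Mgp, was 298 to 479 CPM in the control group and 351 to 529 CPM in the APP/PS1 group. Of 8 microglial genes 5 were lower (median −0.09, 56.6 to 67.0 and 52.7 to 62.4 CPM). The 4 erythroid genes had a median of −1.16, between −2.04 and −0.46 with each replicate left out, and differences in both directions among the pairs (29.3 to 241 and 14.2 to 153 CPM). Of the 2 ependymal genes, Cfap44 had a log2 fold change of −0.82 and Rarres2 of −0.25 (4.75 to 5.85 and 4.05 to 4.98 CPM summed). The part of these cells in the differences of the 7 genes was not tested.

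The difference in log2 CPM between a pair of genes within a library shows how far they moved alike. Ttr minus Clic6 was 4.91 ± 0.19 in the control group and 5.34 ± 0.27 in the APP/PS1 group, with overlapping ranges (SD over 5 libraries). Tmem72 minus Kl was −2.90 ± 0.08 and −3.68 ± 0.13, without overlap. Ttr minus Kl was 2.71 ± 0.26 and 2.31 ± 0.52, and Tmem72 minus Clic6 was −0.70 ± 0.21 and −0.65 ± 0.41, both with overlapping ranges. Enpp2 minus Clic6 was 6.52 ± 0.37 in the control group and 7.92 ± 0.61 in the APP/PS1 group, without overlap.

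The other genes of the choroid plexus epithelium differed in both directions. Of the 22 with a value, 13 were lower and 9 higher in APP/PS1 libraries, where 51.8% of all genes were lower. Of the 22, 5 were lower in all 5 pairs and 0 higher in all 5, compared with 5% and 2.99% of all genes. The median log2 fold change of the 22 was −0.05. By limma, 0 of the 22 had an adjusted p under 0.05. At an unadjusted p under 0.05, 7 of the 22 were lower and 1 higher, where 5.91% of all genes were lower. Prlr had the lowest log2 fold change at −1.73 (standard error 0.836), which rested on pair 1, where the APP/PS1 library held 0 adjusted counts. In the other pairs its differences ran from −1.89 to 0.08. Slc4a10, a sodium-bicarbonate transporter of neurons and of the choroid plexus, was lower in all 5 pairs, at 0.56 ± 0.26 log2 CPM in the control group and −0.73 ± 0.45 in the APP/PS1 group, without overlap, and its log2 fold change was −1.28 (standard error 0.264). Trpm3 had a log2 fold change of −0.88 and was higher in pair 5. Aqp1 (0.43, standard error 0.473) and Msx1, a homeobox transcription factor (0.35, standard error 0.114), had the highest values, and both were lower in pair 2.
The genes were also split by their mean log2 CPM. Of the 12 no higher than the median gene of the table, 9 were lower, 4 in all 5 pairs, with a median of −0.41. Of the 10 above it, 4 were lower, 1 in all 5 pairs, with a median of 0.06. Among all genes, 61.2% of the lower part and 42.5% of the upper part had a difference below 0, and 7.1% and 2.89% were lower in all 5 pairs. The 4 of 10 genes are thus near the share of all genes in the upper part. Of the 12 genes in the lower part, 75% were lower and 33.3% lower in all 5 pairs, both above the shares of all genes there. Among the 7 genes, Tmem72, Clic6, Car12 and Kl lay below this median of 4.30 log2 CPM and Ttr, Igf2 and Enpp2 above it. This split was made after the values were seen.

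**Figure D4:**
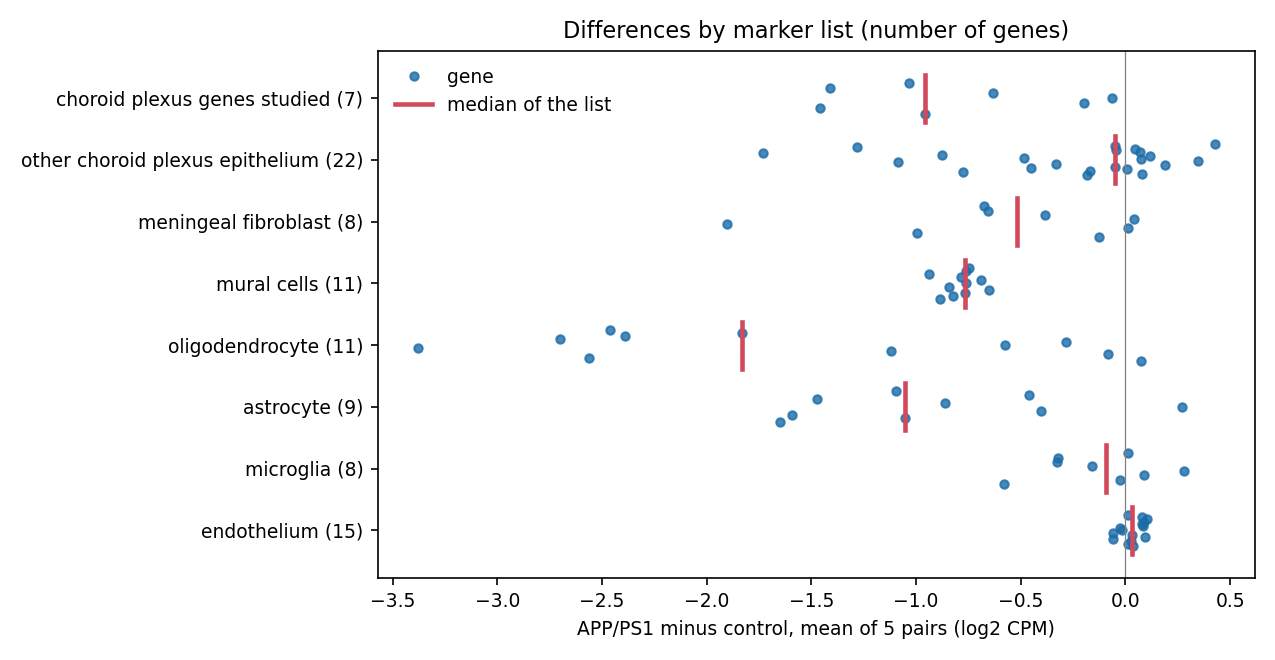
Mean APP/PS1 minus control difference over 5 pairs (log2 CPM) of each gene (points) in 8 marker lists, with the number of genes in brackets and a red bar at the list median. The 7 genes studied have a median of −0.96, the other choroid plexus genes of −0.05, mural genes of −0.77 and endothelial genes of 0.03.

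The partner genes of each member were examined next, from lists of receptors, transporters and enzymes of the same pathway. Around transthyretin, 7 of 11 genes of retinol and thyroid hormone handling had a value, with 4 lower and 3 higher and a median of −0.04. Dio2, the deiodinase that activates thyroid hormone, was at −2.45 (standard error 0.777), with 1 adjusted count in its lowest library and a difference of 0.19 in pair 2. Slco1c1, the thyroxine transporter of the brain endothelium, was higher in all 5 pairs at 0.16, from 11.28 ± 0.07 log2 CPM in the control group to 11.44 ± 0.07 in the APP/PS1 group (SD over 5 libraries). Of the folate genes listed for Folr1, 4 of 6 had a value, and the reduced folate carrier Slc19a1 was lower in all 5 pairs at −0.68 (standard error 0.215), with −1.29 in pair 1 and −0.10 in pair 2.
For klotho, 5 of 9 genes had a value, 2 lower and 3 higher, with a median of 0.02. The receptor genes Fgfr1 and Fgfr2 were at 0.13 and −0.42, and Adam17, whose protease sheds klotho, at 0.05, higher in all 5 pairs. For autotaxin, 6 of 10 genes had a value, 3 lower and 3 higher. The LPA receptor gene Lpar1 was at −2.001 (standard error 0.61), with 1 adjusted count in its lowest library, whereas Lpar4 and Lpar6 were at 0.24 and 0.09. For Igf2, 10 of 14 genes had a value, 6 lower and 4 higher, with a median of −0.06. Igf1r, the receptor through which IGF2 signals, was higher in all 5 pairs at 0.21 (10.33 ± 0.11 log2 CPM in the control group, 10.54 ± 0.11 in the APP/PS1 group), and the binding proteins Igfbp2 and Igfbp5 were at −0.77 and −0.72, each with 1 pair higher.
The families of Clic6 and Car12 were examined last. Clic1, Clic3, Clic4 and Clic5 had log2 fold changes of 0.13, 0.05, 0.19 and 0.11, all above 0 where Clic6 was at −1.46, although Clic3 had as few as 1 adjusted count. Of 7 other carbonic anhydrases, 6 had a value below 0 with a median of −0.04. Car11 was at −0.60 and Car14 at −0.17, the latter lower in all 5 pairs. By limma, 0 of the partner and family genes had an adjusted p under 0.05, and 6 of the 43 with a value (14%), all lower, had an unadjusted p under 0.05, compared with 5.91% of all genes.

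Genes most like the members were sought by the root-mean-square distance over the 10 libraries, after each gene had been centred on its own mean. Such a distance is a description and shares the genotype difference and the batch correction. Nearest to the mean profile of the 7 genes were Ptk7 (distance 0.0893 log2 units), Tns3 (0.104), Tmem45a (0.106), Rbpms2 (0.11) and Gpc1 (0.115). Nearest to Ttr was Scn2b (0.126), to Kl Nckap5 (0.0402), to Clic6 Slc4a10 (0.159), to Tmem72 Mgat5b (0.218), to Car12 Pde1b (0.0995), to Enpp2 Nr3c2 (0.0304) and to Igf2 Ttc16 (0.0455). The members were not close to each other from every side. Among all genes, Clic6 was at position 10 from Tmem72, and Tmem72 and Ttr were at positions 32 and 36 from Clic6. From Ttr, Clic6 was at position 77, Kl at 252, Tmem72 at 336, Car12 at 369, Igf2 at 8730 and Enpp2 at 9405. From Kl, in contrast, Car12 was at position 2855, Igf2 at 5644, Enpp2 at 7410, Tmem72 at 11055, Ttr at 11756 and Clic6 at 12779. The distance is not scaled for the size of a gene's differences. From a gene with smaller differences, such as Kl, little-changed genes therefore come before genes with larger ones. The distance between Ttr and Kl was 0.419 from either side, and these positions do not show whether genes order the pairs alike.

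Promoter sequence was examined because Kl and Car12 were lower in at least 4 pairs and have an annotated start on which RefSeq and GENCODE agree. The 250 bases before that start, from RefSeq on GRCm38.p6, plus strand, are chr5:150952357-150952606 for Kl and chr9:66713436-66713685 for Car12. Capitals mark the GC box GGGCGG on either strand, a motif chosen after the sequences were seen.
Kl: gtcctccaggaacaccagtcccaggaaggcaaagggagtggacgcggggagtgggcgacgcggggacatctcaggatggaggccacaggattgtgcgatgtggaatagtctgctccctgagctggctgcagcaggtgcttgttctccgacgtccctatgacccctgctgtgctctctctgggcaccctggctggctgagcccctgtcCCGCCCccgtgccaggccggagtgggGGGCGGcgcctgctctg
Car12: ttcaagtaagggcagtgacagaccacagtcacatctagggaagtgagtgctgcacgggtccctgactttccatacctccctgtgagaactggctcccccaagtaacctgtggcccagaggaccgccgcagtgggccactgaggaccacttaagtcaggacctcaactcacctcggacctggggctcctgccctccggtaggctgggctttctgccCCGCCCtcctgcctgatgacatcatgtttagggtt
Kl held the box at 43 and 17 bases before the start and Car12 at 35 bases before it, and 66.8% and 59.2% of the bases were G or C. Promoter sequence was found for 4 of the 8 genes in 7 windows, of which 4 held the box, in Car12, Igf2 and Kl, compared with 32.7% of 32851 windows of all genes. Of these 4 windows, 2 are the printed ones in which the motif was chosen, so nothing is read from this comparison. TAATCC, the letters bound by OTX2, a factor of the choroid plexus, was in 0 of the 7 windows on either strand and in 6.25% of all windows.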

How the data were processed

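Per the paper's methods, reads were aligned to mm10 with STAR and counted per gene with HTSeq-count, weakly expressed genes were removed with filterByExpr and log CPM was taken with edgeR, and batch was corrected with ComBat of sva. Versions are not given in the sources used here. The authors deposited log2 CPM of 14106 genes in a table and in 10 library files equal to its columns. In each library 100% of values converted back to whole adjusted counts (tolerance 0.01) with a prior count of 3. The methods describe batch correction after log CPM, whereas whole values would be expected of a correction made on counts before it, and the order was not settled here. The adjusted counts are therefore not taken as reads, and intervals for counting error were left out.

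lmFit and eBayes of limma 3.58.1 (R 4.3.3) were fitted to all genes with genotype and replicate number, 5 pairs, as terms, leaving 4 residual degrees of freedom, with Benjamini-Hochberg adjustment. Standard errors are from this fit. The fit was checked on generated data with known answers. Labels give replicates 4 and 5 the same batch number, whereas the libraries were paired here by replicate number. The text of the paper's supplement mentions batch numbers of the replicates but does not say how many there were. In the values, pair means were almost equal over the 5 pairs, with an SD of 0.00353 log2 units in the median gene. The members and lists were chosen with earlier results of these data known. Named were the members, the defining choroid plexus and ependymal genes, the extremes of each list and the nearest genes. The 17 other lists cover other choroid plexus genes, ependyma, meningeal fibroblasts, oligodendrocytes, neurons, astrocytes, microglia, mural cells, erythroid cells, endothelium, and the pathway or family of each member. All 14106 genes were found in GENCODE M21 (GRCm38). Alternatives left out the pair term, used 4 batches, changed scaling, prior count, filter, test or threshold, or left out a pair. Single values of some listed genes are not reported here.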

Additional observations from a re-analysis of the deposited data

Results flagged for a closer look

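A search for single libraries far from the other 4 of their group, with a gap to the nearest above 0.71 of the group's range, covered 18 groups of 5 libraries and found 3, where about 0.9 would be found by chance. Car12 stood apart in both libraries of pair 2, at −0.52 log2 CPM in the control library (the others between 0.06 and 0.15) and at −0.41 in the APP/PS1 library (the others between −1.21 and −1.02). Because batch correction ties the libraries of a pair, these count as 1 departure. Tmem72 was at −0.28 log2 CPM in control replicate 5, where the others lay between −0.03 and 0.07, and its difference was the smallest in that pair.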

How the results depend on the processing

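The log2 fold changes of the 7 genes moved by less than the SD of their 5 paired differences under each alternative that could be computed (88 of 88 values). That SD was 1.02 for Ttr. Most of these values could not have moved further. A change of model terms, eBayes trend or filter leaves the log2 fold change of a gene as it was. Leaving out 1 of 5 pairs cannot move a mean by as much as the SD. The count of 88 is therefore not a test of stability. The median of the 7 genes, −0.96, was −0.42 with at least 10 adjusted counts in every library, which left 4 of the 7 genes. It ran from −1.11 to −0.62 with each replicate left out. The median of the other choroid plexus genes ran from −0.08 to −0.04 and that of the mural genes from −0.99 to −0.54 in the same way. So did those of oligodendrocyte (−2.61 to −1.38), astrocyte (−1.53 to −0.57), neuronal (−0.69 to −0.36), meningeal (−0.55 to −0.42), ependymal (−0.60 to −0.37), erythroid (−2.04 to −0.46) and microglial genes (−0.26 to 0.04). By limma-voom the astrocyte median was −0.61 and the erythroid median −0.57. Without the replicate block the fit of all genes called 648, among them 4 of the 7 genes, and with the 4 batches of the labels it called 1. Leaving out replicates gave between 0 and 5 genes, the highest without replicate 2, and between 0 and 1 of the 7 genes. The deposited values were centred by pair, so a fit without the block counts degrees of freedom that the correction had used. With library size alone the median of all genes was −0.04 and that of the endothelial genes −0.01. Precision is limited by counts as low as 7 for Tmem72 and Clic6.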
